A study of Mus musculus with 22 samples.

Results

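The 1694 regions described here carried an RNA polymerase II (PolII) ChIP-seq peak in all 4 early-G1 peak lists and in none of the 4 late-G1 lists. They were selected on detection: the peaks of the 14 post-mitotic lists (4 early-G1, 6 mid-G1 and 4 late-G1) were merged wherever they overlapped by 1 bp or more, which gave 169774 merged regions, and the 1694 regions make up 0.998% of these. They are 5.28% of the 32080 regions seen in all 4 early-G1 lists, of which 64.9% were also in all 4 late-G1 lists. Because early-G1 presence and late-G1 absence chose the regions, both are given below as description, and only mid-G1 detection, which the rule did not require but whose lists entered the merging, prometaphase detection, the effect of auxin and the sequence and annotation were open to comparison. The mirror set, called late-G1-only below, holds the 883 regions seen in all 4 late-G1 lists and in no early-G1 list.

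All libraries came from uninduced G1E-ER4 cells, a subline of the GATA1-null mouse proerythroblast line G1E, in which both CTCF alleles carry a C-terminal auxin-inducible degron with mCherry and to which a TIR construct was added. CTCF is the DNA-binding factor that anchors chromatin loops, and auxin triggers degradation of the tagged protein. Cells were arrested in prometaphase with 200 ng/ml nocodazole and released for 0, 60, 120 or 240 min to give the prometaphase, early-G1, mid-G1 and late-G1 stages, either without auxin (control) or with it. Every group therefore shares the tagged CTCF, the TIR construct and the nocodazole arrest. Control cells were sorted as mCherry positive and auxin-treated cells as mCherry negative, prometaphase cells by pMPM2 signal and 4N DNA content, and G1 cells by 2N DNA content. There were 2 control and 2 auxin libraries at prometaphase, early-G1 and late-G1, and 3 of each at mid-G1, all biological replicates according to the labels. Peaks had been called for each library against the 1 input of its stage, so a difference between stages and a difference between inputs cannot be told apart.

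PolII gathers at promoters, pauses shortly past the start site, and is then released to travel through the gene body until it terminates beyond the gene end. During mitosis most PolII leaves the chromosomes and transcription falls, and it returns as cells enter G1. In ChIP-seq a gene body under active elongation gives a low, broad signal that a narrow-peak caller breaks into many small peaks, whereas a promoter gives a tall peak.

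The peak lists held 100031 to 107213 peaks in early-G1, 50594 to 107666 in mid-G1, 74154 to 117125 in late-G1 and 2414 to 3918 in prometaphase. The genome-wide background recovered from each list, which stands for its depth, was 7.53 to 11.8 reads per kb in early-G1, 4.54 to 10.2 in mid-G1, 8.01 to 13.3 in late-G1 and 4.93 to 5.95 in prometaphase. The shallowest post-mitotic library was control mid-G1 replicate 1, and the deepest was control late-G1 replicate 3. The cells carried the erythroid label: of 10 erythroid progenitor markers, 9 had a peak at an annotated transcription start site (TSS) in all 14 post-mitotic lists, and of 18 markers of other cell types 16 had one in none.

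The sequences below, of up to 300 bases around the summit, show DNA under high early-G1 peaks of the set: the highest of those over coding starts, at an annotated start (Plcxd1) and a start inside a gene (Cdk12), then higher ones in introns (Wnk1, Bbc3, Whsc1l1) and a noncoding gene (Gm12059), followed by an intron seen in all 6 mid-G1 lists (N4bp1) and an intron seen in none (Klhl15). They are the plus strand of NCBIM37, which is mm9, without any annotated exon. Capitals mark matches, on either strand, to 6 motifs: GATAA of GATA factors, TGANTCA of AP-1, CACGTG of E-box proteins, CCGGAAG of ETS factors, TGTGGTT of RUNX factors and CCCCGCCC of Sp/KLF factors.
Plcxd1, chr5:110528649-110528948: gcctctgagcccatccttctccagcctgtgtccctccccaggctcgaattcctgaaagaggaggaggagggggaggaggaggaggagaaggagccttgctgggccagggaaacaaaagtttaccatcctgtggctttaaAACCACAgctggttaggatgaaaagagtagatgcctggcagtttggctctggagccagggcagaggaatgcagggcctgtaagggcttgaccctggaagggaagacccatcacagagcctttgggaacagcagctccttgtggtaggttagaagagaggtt
Cdk12, chr11:98081375-98081674: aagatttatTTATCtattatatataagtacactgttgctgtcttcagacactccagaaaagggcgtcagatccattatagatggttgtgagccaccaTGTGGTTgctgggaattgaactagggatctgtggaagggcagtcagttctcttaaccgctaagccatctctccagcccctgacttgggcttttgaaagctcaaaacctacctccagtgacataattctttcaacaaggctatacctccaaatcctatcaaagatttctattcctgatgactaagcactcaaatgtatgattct
Gm12059, chr11:22969001-22969300: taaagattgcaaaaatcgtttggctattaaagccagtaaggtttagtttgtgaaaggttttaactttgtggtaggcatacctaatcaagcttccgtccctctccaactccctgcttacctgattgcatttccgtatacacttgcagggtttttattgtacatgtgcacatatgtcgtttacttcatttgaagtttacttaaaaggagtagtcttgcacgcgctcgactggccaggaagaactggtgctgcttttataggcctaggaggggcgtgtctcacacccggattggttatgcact
Wnk1, chr6:119881779-119882078: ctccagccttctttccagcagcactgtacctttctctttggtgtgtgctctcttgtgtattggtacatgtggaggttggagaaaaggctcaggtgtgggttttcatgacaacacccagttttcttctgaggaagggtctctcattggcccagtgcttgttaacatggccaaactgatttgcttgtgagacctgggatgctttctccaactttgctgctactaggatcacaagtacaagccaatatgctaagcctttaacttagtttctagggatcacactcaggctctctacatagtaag
Bbc3, chr7:16900999-16901298: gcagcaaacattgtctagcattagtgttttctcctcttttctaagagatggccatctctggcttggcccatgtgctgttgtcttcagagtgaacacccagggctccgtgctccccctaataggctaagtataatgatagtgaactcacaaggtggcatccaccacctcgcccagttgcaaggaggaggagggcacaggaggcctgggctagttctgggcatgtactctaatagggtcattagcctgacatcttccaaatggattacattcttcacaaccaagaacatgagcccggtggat
Whsc1l1, chr8:26723826-26724125: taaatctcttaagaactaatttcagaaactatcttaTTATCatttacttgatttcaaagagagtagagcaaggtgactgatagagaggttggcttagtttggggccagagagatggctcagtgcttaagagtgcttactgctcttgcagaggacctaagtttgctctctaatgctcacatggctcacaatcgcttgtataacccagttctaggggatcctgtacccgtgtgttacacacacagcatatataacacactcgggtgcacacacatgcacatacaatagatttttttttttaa
N4bp1, chr8:89402773-89403072: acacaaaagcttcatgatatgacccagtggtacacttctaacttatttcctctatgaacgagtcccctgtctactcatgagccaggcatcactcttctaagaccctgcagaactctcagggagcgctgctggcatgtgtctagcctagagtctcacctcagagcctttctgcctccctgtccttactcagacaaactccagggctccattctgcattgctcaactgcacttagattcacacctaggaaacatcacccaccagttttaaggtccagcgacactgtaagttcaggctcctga
Klhl15, chrX:91503364-91503663: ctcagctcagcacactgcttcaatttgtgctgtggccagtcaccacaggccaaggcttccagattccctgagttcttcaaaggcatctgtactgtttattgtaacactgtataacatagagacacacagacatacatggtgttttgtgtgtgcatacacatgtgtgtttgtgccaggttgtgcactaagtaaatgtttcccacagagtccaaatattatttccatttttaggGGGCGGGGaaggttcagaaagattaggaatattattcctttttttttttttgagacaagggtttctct

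Early-G1 peaks of the set were low. Fold enrichment, the height of a peak's summit over its local background, averaged over the 4 early-G1 libraries, had a median of 5.33 over the 1694 regions (quartiles 4.93 and 5.84, highest 11.5), against 11.0 for the 20818 regions in all 4 early-G1 and all 4 late-G1 lists. By library the median was 5.34 and 5.10 in the controls and 5.50 and 5.43 with auxin. These heights rested on few reads: the median summit pileup was 12 reads in control replicate 1, 16 in control replicate 2 and 12 in each auxin library, over backgrounds of 1.26 to 2.13 reads. The regions were also narrow, with a median merged width of 768 bp against 845 bp for late-G1-only regions and 1680 bp for all regions in all 4 early-G1 lists.

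**Figure D1:**
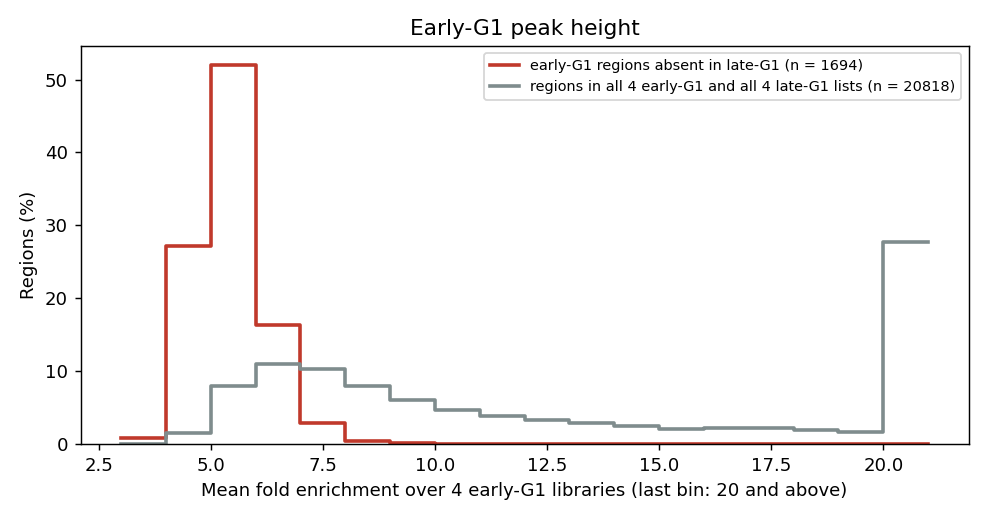
Distribution of the mean fold enrichment over the 4 early-G1 libraries (x axis, bins of 1, the last holding values of 20 and above) for the 1694 early-G1 regions absent in late-G1 (red) and the 20818 regions in all 4 early-G1 and all 4 late-G1 lists (grey), as a percentage of each set (y axis). The red curve peaks between 5 and 6 and almost ends by 8, while the grey curve reaches far beyond; both sets were chosen by detection, so the plot is a description.

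Around the rule's limits the values ran together. The 3051 regions with 4 early-G1 lists and 1 late-G1 list had a median mean fold enrichment of 5.55, and the 3608 regions with 3 early-G1 lists and no late-G1 list had 4.96 over the lists that held them. In the late-G1 lists the lowest fold enrichment called at the genome-wide background was 3.19 to 3.33. The 1st percentile of such calls was 3.51 to 3.75. In early-G1 every fold enrichment was above 3.33 for 1640 of the 1694 regions (96.8%). The rule required a called peak in all 4 early-G1 lists, so this count is a description and does not bear on the late-G1 signal. How many reads the late-G1 libraries held at these places is not in the peak lists.

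Apart from 1 noncoding locus, the highest of these peaks without a TSS lay in introns, past gene ends or on chromosome 18. The noncoding locus, in Gm12059 at chr11:22968964-22969342, had the highest mean fold enrichment of the set, with 9.45 and 10.5 in the controls and 14.2 and 11.7 with auxin, and it lay 32 bp from a region seen in all 14 lists. Wnk1, a kinase gene that regulates ion transport, had an intronic region at chr6:119880971-119882357 with fold enrichments of 9.45 and 10.2 in the controls and 8.41 and 7.96 with auxin. In Bbc3, which encodes the apoptosis inducer PUMA, the intronic region at chr7:16900261-16901405 gave 9.04 and 7.02 in the controls and 11.5 and 9.22 with auxin. In these 3 loci every one of the 4 early-G1 libraries was above 7, as in the other high regions without a TSS given next. The region in an intron of Whsc1l1, a histone methyltransferase gene, ranged from 7.80 to 9.66, that in an intron of Mms22l, a gene for replication fork repair, from 7.70 to 9.57, and the intergenic one 5531 bp past the end of Atpif1, which encodes an inhibitor of the mitochondrial ATP synthase, from 7.51 to 9.25. Both chromosome 18 regions were intergenic and over 50 kb from the nearest coding gene, with mean fold enrichments of 10.1 and 8.92.

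Gene bodies held most of the set. Of the 1694 regions, 1346 (79.5%) lay in a protein-coding gene without touching a TSS, 265 (15.6%) were intergenic, 59 (3.48%) overlapped a coding TSS, 19 lay in noncoding genes and 5 overlapped a noncoding TSS. Among all 32080 regions in all 4 early-G1 lists the gene-body share was 48.3%, the intergenic share 18.6% and the coding-TSS share 30.5%, and among the 883 late-G1-only regions they were 49.7%, 41.4% and 5.32%. Summits fell in introns in 1249 regions (73.7%), in coding exons in 75 and in untranslated exons in 78. Of the 265 intergenic regions, 201 (75.8%) lay within 10 kb past the end of a coding gene, against 68.4% of the intergenic regions in all 4 early-G1 lists and 43.4% of the late-G1-only ones. Annotation shares are descriptions over regions, which are not replicates.

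**Figure D2:**
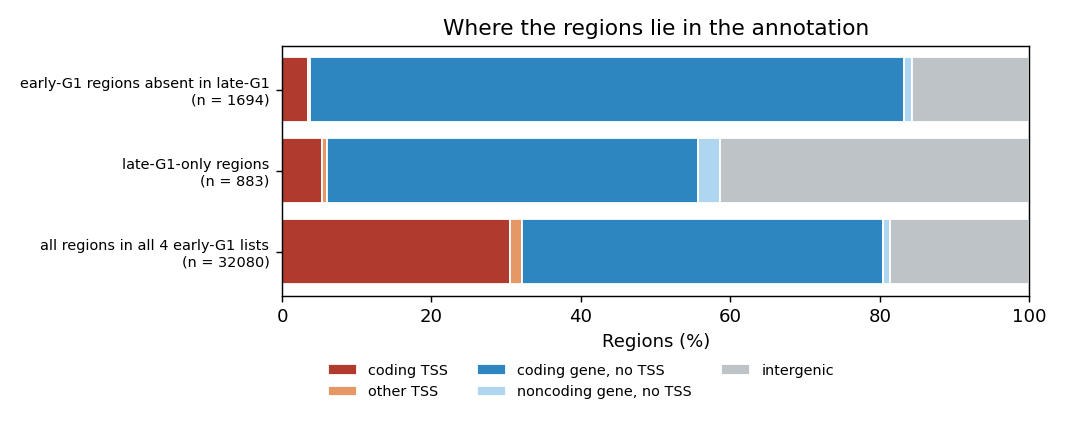
Share of regions (x axis, percent) in 5 annotation classes for the 1694 early-G1 regions absent in late-G1, the 883 late-G1-only regions and all 32080 regions in all 4 early-G1 lists. The bar of the 1694 regions is 79.5% coding gene body without TSS and 3.48% coding TSS, against 48.3% and 30.5% in the bottom bar.

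Within genes the regions were spread along the whole length, much as the 15509 gene-body regions in all 4 early-G1 lists were. The median position was 54.0% of the gene from its start, with 20.7% of the regions in the first 25% of the length and 27.1% in the last 25%, against 54.6%, 19.8% and 28.8% over those 15509 regions. Late-G1-only regions lay toward the end, with a median of 67.6% and 43.5% of them in the last 25%. In the first 10% of the gene lay 5.13% of the regions, and each later step of 10% held 9.58% to 12.2%. The last step held 10.6% of them, against 25.5% of the late-G1-only regions and 16.5% of the gene-body regions in all 4 early-G1 and all 4 late-G1 lists.

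**Figure D3:**
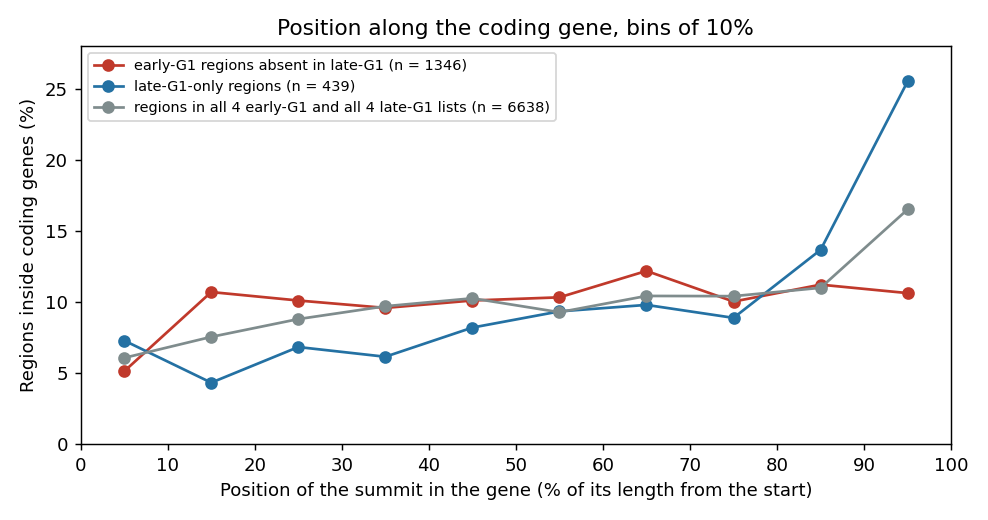
Position of the summit in the coding gene (x axis, percent of gene length from the start, in steps of 10%) and share of the gene-body regions in each step (y axis, percent) for 1346 early-G1 regions absent in late-G1 (red), 439 late-G1-only regions (blue) and 6638 regions in all 4 early-G1 and all 4 late-G1 lists (grey). The red line is level after the first step, and the blue line climbs to 25.5% in the last.

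The host genes were long, and most had a promoter peak at all post-mitotic stages. In all, 793 coding genes held 1348 of the regions, and the 263 genes with at least 2 held 60.7% of those. Median host length was 58.3 kb, against 21.4 kb for the 8486 coding genes over 1 kb with a TSS peak in all 14 lists. Counted per gene-body region it was 71.7 kb, close to the 67.9 kb of late-G1-only regions and above the 52.1 kb of all regions in all 4 early-G1 lists. A TSS peak in all 14 post-mitotic lists was present in 691 host genes (87.1%) and in 41.5% of all coding genes over 1 kb. Of all 22365 protein-coding genes 12568 had a TSS peak in none of these lists. The share among hosts of the other early-G1 gene-body regions was not counted, so the 87.1% is not particular to this set. Of the hosts of late-G1-only regions, 67.6% had such a TSS peak. No TSS peak in any late-G1 list was found at 66 of the 793 hosts (8.32%), and none in any early-G1 list at 62. Regions of both kinds were held by 14 genes, a share of 1.77% of the hosts. By the same count, 309 of all 22365 protein-coding genes held late-G1-only regions. A wider count, of regions in the gene or within 10 kb upstream of its TSS, gave 2.36% of the 22365. That share is not comparable with the 1.77%. The overlap was not tested.

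Peak cover of the gene body, the percentage of its length under peaks, followed the stages. Over the 793 hosts its median was 21.1% and 24.2% in the early-G1 controls and 15.9% and 16.1% with auxin, then 1.80% to 11.7% over the 6 mid-G1 libraries and 5.20% to 11.8% over the 4 late-G1 libraries, and it was 0 in all 4 prometaphase libraries. Over the 8486 genes with a TSS peak in all 14 lists the early-G1 medians were 16.1% and 18.2% in the controls. With auxin they were 13.1% and 13.97%, so lower early-G1 cover with auxin was not particular to the hosts. The early-G1 difference in cover with auxin was not tested. The mid-G1 medians of the 8486 genes were 3.86% to 16.0% and the late-G1 medians 9.74% to 19.3%. Hosts were thus above these genes in each early-G1 library and below them in each mid-G1 and late-G1 library. Early-G1 cover lay above late-G1 cover without overlap in 517 of 793 hosts (65.2%), against a background of 14.6% of the 8486 genes. That contrast is the one that chose the regions, so nothing is read from the excess. Early-G1 cover lay above mid-G1 cover without overlap in 440 hosts (55.5%), against 14.8% of the 8486 genes, and here too the early-G1 values had entered the choice. By background per kb both control libraries were deeper than both auxin libraries in early-G1 (8.15 and 11.8 against 7.53 and 7.92 reads per kb). The same held in late-G1 (9.71 and 13.3 against 9.23 and 8.01). The paper's counts of uniquely mapped reads did not all follow this order. The part of depth in the cover was not tested.

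By number of regions, 12 genes stood at the head, with 8 to 11 regions each, and they were 71.7 to 136 kb long. Cnnm2, a magnesium transport gene at chr19:46836086-46953285, held 11 regions. Its peak cover was 45.9% and 46.3% in the early-G1 controls and 32.3% and 33.8% with auxin. In mid-G1 the cover of Cnnm2 was 2.66%, 8.65% and 9.92% in the controls and 9.95%, 15.4% and 4.77% with auxin, and in late-G1 it was 12.9% and 15.8% in the controls and 7.74% and 8.03% with auxin. The mid-G1 and late-G1 values of Cnnm2 overlapped, and the early-G1 values lay above both. The annotated start of Cnnm2 had no peak, and the nearest region in all 14 lists began 616 bp from it.

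Nrf1, which encodes a transcription factor for nuclear genes of mitochondrial function (chr6:29997988-30103458), held 10 regions, and its cover was 31.5% and 36.7% in the early-G1 controls and 26.7% and 22.7% with auxin. In mid-G1 it ranged from 1.89% to 13.0% and in late-G1 from 2.58% to 15.3%. Whsc1l1 (chr8:26712073-26830139) also held 10 regions, with 37.9% and 48.6% in the early-G1 controls, 30.3% and 29.7% with auxin, 1.33% to 15.9% in mid-G1 and 6.39% to 16.8% in late-G1. Arid4b, a gene for a subunit of a histone deacetylase complex, held 9, and its cover went from 10.5% to 23.5% in early-G1 to 0.513% to 3.29% in mid-G1 and 1.42% to 2.098% in late-G1. The other 8 genes held 8 regions each: 2700049A03Rik, Cnot6l of the CCR4-NOT deadenylase, the chromatin remodeler Ep400, the calcineurin-regulated factor Nfatc3, the myosin phosphatase subunit Ppp1r12a, Ptplb, Slmap and the deubiquitinase Usp37. Highest in early-G1 was Usp37, with a mean cover of 52.4% against 19.1% in mid-G1 and 18.6% in late-G1, and lowest was Ptplb, with 9.66% against 1.38% and 0.696%. In all 12 genes the lowest early-G1 value was above the highest mid-G1 value, which held for 14.8% of the 8486 genes with a TSS peak in all 14 lists. Early-G1 peaks had entered the choice of the 12 genes, so this separation is a description. The mid-G1 mean was between the early-G1 and late-G1 means in 6. A TSS peak was present in all 14 lists in 10 of the 12. The exceptions were Cnnm2 and Usp37, whose annotated start lay 7186 bp from the nearest such region.

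**Figure D4:**
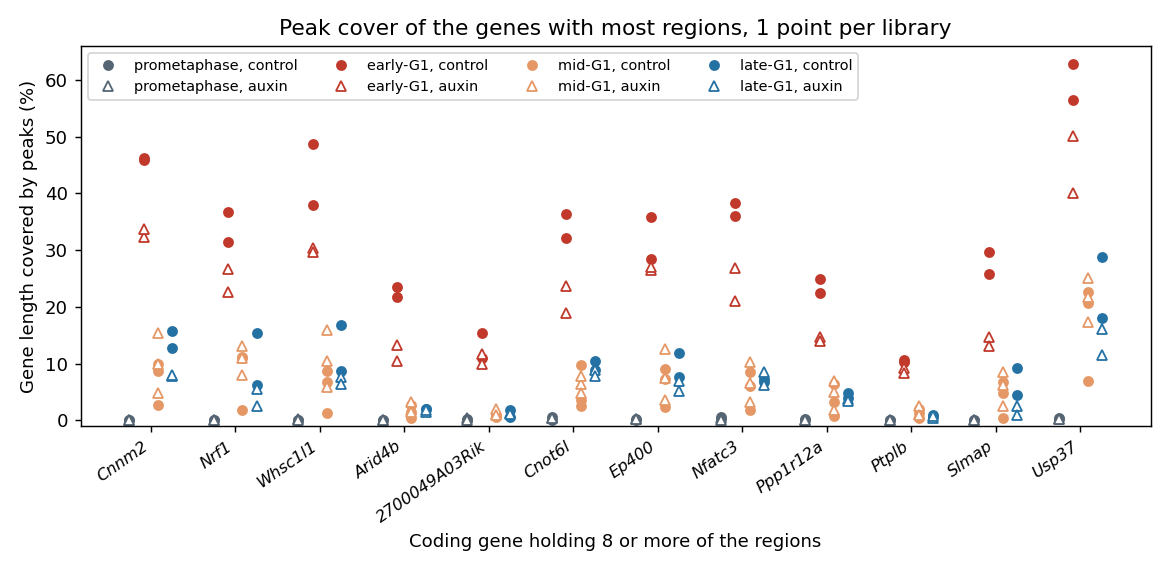
Percentage of gene length under peaks (y axis) in each of the 18 PolII libraries (1 point each, filled circles control, open triangles auxin, colour by stage) for the 12 coding genes holding 8 or more of the regions (x axis). Early-G1 points lie above all mid-G1 and late-G1 points of the same gene, and prometaphase points lie near 0. The genes were chosen through early-G1 presence and late-G1 absence, so the plot is a description.

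The 59 regions over a coding TSS were mostly at starts inside genes, 47 against 12 over the outermost start of a gene. Highest among the 59 was Plcxd1, a gene with a phospholipase C domain, at chr5:110528610-110529468, with fold enrichments of 7.39 and 6.38 in the controls and 6.64 and 9.22 with auxin. It lay 530 bp from a region seen in all 14 lists and had a peak in 5 of 6 mid-G1 lists. The region at an internal start of Cdk12, the kinase that phosphorylates the PolII C-terminal domain, had 6.57 and 6.06 in the controls and 7.53 and 7.54 with auxin. Cdk12 also had a peak in 5 of 6 mid-G1 lists, at 4.33 to 6.45. Hcn3, an ion channel gene, had a region of 261 bp over its start with early-G1 values of 6.16 to 6.70 and no mid-G1 peak. The start of Clcn1, the chloride channel gene of skeletal muscle, had 5.75 and 5.42 in the controls and 7.09 and 8.38 with auxin, and a peak in 2 mid-G1 lists. The other 4 named by the same rule were Gm9961 and the internal starts of Whsc1, Nbr1 and Tnks2, with mean fold enrichments of 6.27 to 6.46 and peaks in 1 to 4 mid-G1 lists.

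The rule required neither presence nor absence in mid-G1, although the mid-G1 lists were among the 14 that set the limits of the regions. Merging the 8 early-G1 and late-G1 lists alone gave 1812 regions. In the controls 85 (5.02%), 478 (28.2%) and 515 (30.4%) of the 1694 regions had a mid-G1 peak, and with auxin 564 (33.3%), 751 (44.3%) and 276 (16.3%) did. The lowest share was in control replicate 1, the shallowest mid-G1 library at 4.54 reads per kb, against 8.39 to 10.2 for the other 5. Where a mid-G1 peak was present its median fold enrichment was 4.60 to 5.53 by library. At least 1 mid-G1 list held 1186 of the regions (70.01%), 203 were in 4 or more, 15 were in all 6 and 508 were in none.

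Mid-G1 shares of the set lay below those of the late-G1-only regions in each library. Of those 883 regions, 20.4%, 57.8% and 59.2% had a peak in the mid-G1 controls and 67.0%, 75.1% and 48.7% with auxin. The difference, early-G1 regions minus late-G1-only regions, was -28.4 percentage points (SD 6.66, n = 6 libraries) and was negative in 6 of 6 libraries, from -33.8 to -15.4 (p = 0.03125, exact two-sided permutation test exchanging both sets within libraries, the smallest p it allows). Over the 3 exact permutation tests made on the set and its hosts the adjusted p was 0.0938 (Benjamini-Hochberg), which did not pass 0.05. Both sets share these libraries, and each was required to be in 4 lists of 1 stage and absent from 4 of another. The same regions were compared in every library, so the p-value covers only how the order repeats across libraries. The sets were not matched for peak height or width. Mid-G1 detection rose with the number of late-G1 lists that held a region: averaged over the 6 libraries it was 26.3% with none, the regions described here, 41.8% with 1, 53.2% with 2, 68.4% with 3 and 93.9% with 4. Over all 32080 regions in all 4 early-G1 lists it was 78.8%.

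**Figure D5:**
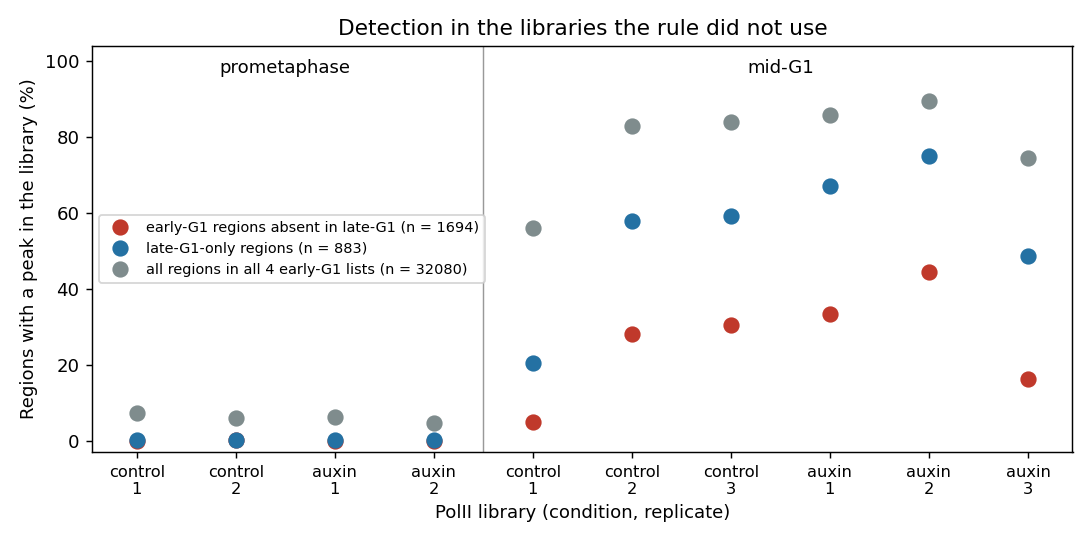
Percentage of regions with a peak (y axis) in each of the 4 prometaphase and 6 mid-G1 libraries (x axis), for the 1694 early-G1 regions absent in late-G1 (red), the 883 late-G1-only regions (blue) and all 32080 regions in all 4 early-G1 lists (grey). Red lies below blue and blue below grey in all 6 mid-G1 libraries, and red ranges from 5.02% to 44.3%.

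Among the regions seen in all 6 mid-G1 lists, 1 of those highest in early-G1 overlapped the start of the noncoding gene Gm13071 at chr4:148872685-148875181, with 6.29 to 7.80 in early-G1 and 5.12 to 7.49 in mid-G1. Another was in an intron of N4bp1, with 5.74 to 7.13 in early-G1 and 5.24 to 6.45 in mid-G1. Among the regions in no mid-G1 list, 2 were in introns of 2700049A03Rik, at 7.13 to 8.41 and 6.89 to 9.22 in early-G1, and 1 was in an intron of Klhl15, which encodes an adaptor of a ubiquitin ligase, at 10.3 and 7.98 in the controls and 6.20 and 7.96 with auxin. By early-G1 height the groups overlapped widely: the median of the mean fold enrichment was 5.19 for the 508 regions in no mid-G1 list and 5.76 for the 15 in all 6.

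Distance from the start of the host gene went with mid-G1 detection. Of the 187 gene-body regions under 10 kb from the host's start, 31.4% had a mid-G1 peak on average over the 6 libraries (6.42% to 50.3%), and of the 447 at 50 kb or more 20.3% did (4.47% to 38.9%). The far share was below the near share in 6 of 6 libraries. The same order held for the other gene-body regions in all 4 early-G1 lists, at 74.5% for 3152 near and 65.7% for 2971 far regions. The differences were -11.1 and -8.76 percentage points, and neither they nor the gap between them was tested. Intergenic regions averaged 32.7%, and those over a coding TSS 34.5%.

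Prometaphase peaks were nearly absent from the set. Of the 1694 regions 1 (0.0590%) had one, against 3 of the 883 late-G1-only regions (0.340%) and 10.7% of all regions in all 4 early-G1 lists. In regions with 4 early-G1 lists and 1, 2 or 3 late-G1 lists it was 0 of 3051, 4 of 2932 and 4 of 3585, while 16.4% of those in all 4 late-G1 lists had one. The 1 region of the set lies in an intron of Ppm1d, which encodes a p53-induced phosphatase, at chr11:85134726-85135809, and its peak was in prometaphase control replicate 2 at a fold enrichment of 6.02. In early-G1 the Ppm1d region had 4.46 and 4.71 in the controls and 5.76 and 5.87 with auxin. The prometaphase lists held far fewer peaks than the others, which limits what could be seen there. A TSS peak in at least 1 prometaphase list was present at 36.2% of the 793 hosts and 36.0% of the 8486 genes.

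No region of the set was called with auxin in early-G1, which does not show that none changed: 2 libraries were compared with 2, and the rule itself required a peak in both control and both auxin lists. Ranks of the fold enrichment within each early-G1 list were compared with limma over all 32080 regions in all 4 early-G1 lists. None of the 1694 regions passed an adjusted p of 0.05 (lowest adjusted p = 0.388, limma with Benjamini-Hochberg adjustment), and of all regions tested 0.0% did. At an unadjusted p under 0.05 the count was 175 of 1694 (10.3%), of which 116 ranked higher with auxin and 59 lower, beside a background of 8.39% of all regions tested. At the same p 1481 of all regions tested ranked higher and 1209 lower. On the normal-score scale the split turned to 85 higher and 145 lower in the set and to 679 higher and 2002 lower over all regions.

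The regions with the largest early-G1 rank changes at an unadjusted p under 0.05 were all intronic. Mvp, the major vault protein gene, had fold enrichments of 4.02 and 4.15 in the controls and 8.11 and 7.17 with auxin, a rank change of 1.76 ± 0.30 (log2 scale, SE; adjusted p = 0.388, limma). Ndrg3 had 4.14 and 4.05 in the controls and 9.66 and 6.38 with auxin, a rank change of 1.73 ± 0.36. In the other direction, 4930422G04Rik had 8.87 and 7.50 in the controls and 4.58 and 4.097 with auxin, a rank change of -1.73 ± 0.31. Smarcc1, a subunit gene of the BAF chromatin remodeler, had 6.98 and 6.91 in the controls and 3.99 and 3.54 with auxin, a rank change of -1.50 ± 0.30. These 4 were chosen for their change, so their separation is a description, and none passed the adjusted threshold. Each was in 1 mid-G1 list.

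In mid-G1 the shares with and without auxin overlapped. The mean was 21.2% ± 14.1 (SD, n = 3) in the controls and 31.3% ± 14.1 (SD, n = 3) with auxin, a difference of 10.1 percentage points (p = 0.4, exact two-sided permutation test, smallest possible p 0.1). Without control replicate 1 the difference was 2.00 points (p = 0.8, exact permutation test). Over all 32080 regions in all 4 early-G1 lists it was 8.89 points (p = 0.5, exact permutation test). All 3 auxin lists and no control list held 21 regions (1.24%), and all 3 control lists and no auxin list held 1 (0.0590%). Over all 32080 regions in all 4 early-G1 lists these counts were 170 (0.530%) and 15 (0.0468%). Over the 883 late-G1-only regions they were 23 (2.60%) and 0. Control replicate 1, which held 85 of the 1694 regions, bears on both counts. The 15 regions in all 6 mid-G1 lists could be tested by rank, and none was called (lowest adjusted p = 0.732, limma), none had an unadjusted p under 0.05, and the background was 0.113% called of 17642 regions and 7.82% at an unadjusted p under 0.05. A test of whether the auxin change differed between early-G1 and mid-G1 called none of the 15, with 2 at an unadjusted p under 0.05 and 0 called of 16626 regions (limma). Median mid-G1 cover of the host genes was 6.01% ± 3.76 in the controls and 8.32% ± 3.72 with auxin (SD, n = 3 each; p = 0.6, exact permutation test). Adjusted over the same 3 exact permutation tests, both auxin comparisons of the set and its hosts had p = 0.6.

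The rule gave more regions within each condition alone. In the control lists alone 8051 regions were in both early-G1 lists and no late-G1 list, of which 21.04% are among the 1694, and in the auxin lists alone 9283, of which 18.2% are. Of the 9283 auxin regions, 57.3% had a peak in a control late-G1 list, while of the 8051 control regions 18.3% had a peak in an auxin late-G1 list. By background per kb the late-G1 control libraries were the deeper ones, and the part of depth in this was not tested.

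For the gene lists a region counted if it lay in the gene or within 10 kb upstream of its TSS. Apart from p53 targets, each gene list had at most 1 gene with such a region. Of all 22365 protein-coding genes 4.60% had one by this count. Among p53 targets 3 of 20 did: Bbc3, Sesn2, a stress-induced regulator of growth signalling, and Polk, a translesion DNA polymerase gene with 2 regions. Of these 20 genes 5 had a TSS peak in none of the 14 post-mitotic lists, against 12568 of the 22365. The 4.60% is therefore not a background of genes with promoter peaks. The intronic region of Sesn2 had 4.02 and 4.79 in the early-G1 controls and 5.31 and 4.61 with auxin and was in 4 mid-G1 lists, at 5.06 to 7.87. The Polk regions ranged from 5.31 to 6.98 and from 4.93 to 7.09 in early-G1. None of 20 immediate early genes and none of 20 mitotic machinery genes held a region. Of 20 G1 and S phase genes 1 did, the cell cycle inhibitor Rb1, with an intronic region at 6.98 and 4.15 in the controls and 5.31 and 5.03 with auxin and no mid-G1 peak. Of 19 annotated hematopoietic regulators 1 did, the repressor Etv6, at 5.10 to 5.45. Of 20 actin and serum response genes 1 did, Vcl, which encodes vinculin, at 3.32 to 5.43, near the low end of the set. Of 19 annotated genes of erythroid maturation and heme synthesis 1 did, Epb4.1, a membrane skeleton gene with 2 intronic regions at 4.202 to 4.85 and 4.15 to 8.41. Among markers of other cell types the B cell gene Cd79a had a region 2131 bp from its start, at 3.48 to 5.46, which lay 5444 bp past the end of the ribosomal protein gene Rps19. With lists of this size, counts of 0 to 3 are descriptions.

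The DNA under the summits was poorer in G and C than other early-G1 regions. In windows of 300 bases the median GC content was 45.0% over the 1694 regions, 49.0% over all regions in all 4 early-G1 lists and 48.3% over the late-G1-only regions. Restricted to coding gene bodies it was 44.7%, against 47.3% for the regions in all 4 early-G1 and all 4 late-G1 lists. At coding TSSs the 59 regions had a median GC content of 49.0% and 4 CpG dinucleotides per window, against 63.0% and 24 for the 8376 TSS regions in all 14 lists. No test was run on these shares.

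Letters of the 6 motifs were counted in the same windows. GATAA was found in 34.6% of the windows, against 29.2% of the windows of all regions in all 4 early-G1 lists. TGANTCA was in 8.85% against 7.70%, TGTGGTT in 8.91% against 6.76% and CACGTG in 5.08% against 6.45%. The GC-rich letters were rarer: CCGGAAG in 1.06% against 6.87% and CCCCGCCC in 0.708% against 8.12%. Among gene-body windows, the 1346 regions and the 6637 in all 4 early-G1 and all 4 late-G1 lists gave 35.4% and 36.1% for GATAA, 0.892% and 1.88% for CCGGAAG, and 0.669% and 2.08% for CCCCGCCC. Over coding TSSs, 1 of 59 windows held CCGGAAG and 0 held CCCCGCCC, against 19.8% and 23.7% of the 8376 TSS windows in all 14 lists. None of the printed Wnk1, Bbc3, N4bp1 and Gm12059 windows held any of the 6 motifs, while that of Cdk12 held GATAA and TGTGGTT and that of Plcxd1 held TGTGGTT. A match here is only a match of letters, counted on either strand.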

How the data were processed

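PolII ChIP-seq and input chromatin were sequenced from 22 samples, 18 of PolII and 4 of input. Per the labels and methods, the authors aligned reads to mm9 with Bowtie2 2.2.9, removed duplicates with SAMtools 0.1.19 and unwanted contigs and blacklisted reads with bedtools 2.27.1, and called peaks per library with MACS2 2.1.0 at a q-value of 0.01 against the input of the same stage. The deposited peak lists give a fold enrichment ratio, a −log10 p-value, a −log10 q-value and a display score for each peak; the score was read but not used. Read coverage outside peaks was not analysed here.

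Peaks of the 14 post-mitotic lists were merged at an overlap of 1 bp or more. A library counted as holding a region if any of its peaks fell inside, and the tallest such peak gave the fold enrichment. Summit pileups and backgrounds were solved from the fold and its p-value. They came out as whole reads for 100% of the peaks used, the p-value of a whole number matching within 0.1% plus 0.002 on the −log10 scale, and background per kb served as depth. Auxin was tested on -log2 ranks with limma 3.58.1 (R 4.3.3) over all regions in every list of the stage, with Benjamini-Hochberg adjustment and a threshold of 0.05. The fit was tested on simulated ranks with 200 changed regions, of which few passed the adjusted threshold. Detection shares were compared by exact permutation over libraries (numpy 2.4.6, scipy 1.17.1). Annotation was GENCODE vM1 on NCBIM37, and gene models over 2.5 Mb were left out as hosts.

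The regions and gene lists were chosen with earlier results of these data known. Named regions were the 8 coding-TSS regions and the 8 without TSS with the best early-G1 rank, the 3 genes with most regions, the 3 regions in all mid-G1 lists and the 3 in none with the best rank, the 2 with the largest early-G1 auxin change in each direction at an unadjusted p under 0.05, regions with a prometaphase peak, and list genes. The genes with 8 regions were added after their values were seen. One region that the naming rule selected is not reported here.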

Additional observations from a re-analysis of the deposited data

How the results depend on the processing

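The number of regions depended on how detection was counted. It was 756 with an equal number of peaks per list (50594, the shortest list), 499 with peaks within 1 kb joined and 640 with no late-G1 peak within 1 kb. Other settings gave 1690 (−log10 q of 3 or more), 2411 (25% of the region covered) and 1812 (early-G1 and late-G1 lists merged alone). Leaving out 1 early-G1 library gave 2210 to 3007 and 1 late-G1 library 1874 to 3902, the highest without control late-G1 replicate 3; without auxin early-G1 replicates 1 and 2 it was 2697 and 3007. The share in coding gene bodies was 78.3% for the 640 regions and 80.3% for the 3902, both alternatives chosen after seeing the data, and both sets held 1 region with a prometaphase peak. The mid-G1 difference from late-G1-only regions was -36.1 to -27.5 points under the other settings, the last with the 8 early-G1 and late-G1 lists merged alone (p = 0.03125, exact permutation), an alternative chosen after seeing the data that gave 10.4 points for auxin, and -31.1 to -27.4 with 1 mid-G1 library left out, where 5 libraries allow no p below 0.0625. The mid-G1 auxin difference stayed positive, 6.04 to 12.3 points under the other settings and 2.00 to 17.6 with 1 library left out. With the replicate block it was 10.1 points (p = 0.5, exact permutation, smallest possible p 0.25). No region of the set was called in early-G1 or mid-G1 under any limma setting, the replicate block included. Same-numbered libraries deviated together weakly, with correlations of 0.0150 in early-G1 and 0.0862, 0.116 and 0.270 in mid-G1, so the numbers were not taken as pairs. Over all regions the block moved the mid-G1 calls from 20 to 41, and leaving out control early-G1 replicate 1 or 2 gave 26 or 24 early-G1 calls in place of 0. Low peaks of about 12 reads limit every count here.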
